A study of Zea mays subsp. mays with 2 samples.

Results

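Loci of the maize genome that were on in the shoot and off in the root numbered 419. A locus was taken as on at 10 FPKM or more in shoot and as off below 1 FPKM in root. FPKM is the fragment count scaled to transcript length and to the size of the library. The choice was made among 23777 loci that lay on chromosomes 1 to 10, had a position of their own and spanned more than 300 bases, out of 29674 loci in the table. These 23777 are called eligible loci here. The 419 made up 1.76% of them, and 3.45% of the 12133 eligible loci at 10 FPKM or more in shoot. The loci were chosen by both FPKM values and the span, so their levels are given as a description and no test was made on them.

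The samples were the shoot and the root of B73, the inbred maize line whose genome serves as the reference. Both organs came from plants harvested 14 days after germination, carried no treatment and gave 1 library each of polyadenylated RNA. There are no replicates, so every difference compares these 2 libraries and the spread between plants was not measured. In whole organs, fewer cells of a type and less RNA per cell cannot be told apart. The deposited table names loci by assembly number and position only. Gene names were not used here, so the organ labels were not checked against marker genes and each locus is given by its coordinates on B73 RefGen_v2, as deposited.

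The shoot of a grass seedling consists mainly of leaves, whose cells hold chloroplasts and carry out photosynthesis. Most proteins of the photosynthetic apparatus are encoded in the nucleus and made in the cytosol. Roots take up water and minerals and anchor the plant, and their plastids are not green. Organs also differ in transcription factors, cell wall enzymes and defence metabolism. In plant genomes, copies of a gene often stand in tandem, and such copies can be active in the same organ.

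The loci covered a wide range of shoot levels, with most of their RNA in a few. Shoot levels ran from 10.05 to 2881 FPKM, with a median of 30.6 and quartiles of 15.4 and 88.4. Of the 419, 267 (63.7%) were at 20 FPKM or more, 91 (21.7%) at 100 or more and 31 (7.40%) at 500 or more. Only 29 loci, 6.92% of the set, held 50% of its summed shoot FPKM. The whole set summed to 47084 FPKM in shoot, 4.13% of the sum over eligible loci, and to 153 FPKM in root, 0.0114% of the corresponding root sum.

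Off in root rarely meant absent from the root library. Root levels had a median of 0.313 FPKM, with quartiles of 0.0783 and 0.580. A root value of 0 was listed for 13 loci (3.10%), 123 (29.4%) were under 0.1 FPKM and 71 (16.9%) were at 0.75 FPKM or more. By the size of the steps between low values, 1 FPKM on 1000 effective bases stood for about 131 fragments in root and 113 in shoot. By that worth and the whole span, which overstates fragments where introns are present, 336 of the 419 root values rested on 10 fragments or more. Another 18 root values above 0 rested on fewer than 3. The shoot value exceeded the root value by 11.1-fold to 9536-fold over the 406 loci above 0 in root, with a median of 185-fold. The ratio was 100 or more at 249 of these and 1000 or more at 88.

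**Figure D1:**
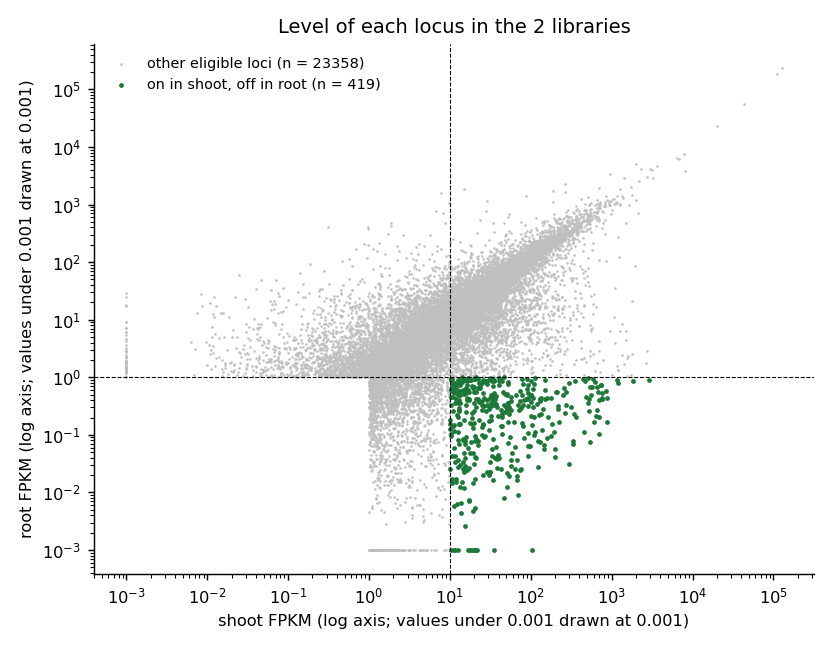
Each point is a locus, with its shoot FPKM on the horizontal and its root FPKM on the vertical log axis, and dashed lines at the thresholds of 10 and 1 FPKM. The 419 loci on in shoot and off in root (green) fill the lower right, and at 500 FPKM or more in shoot only 1 of 31 lies under 0.1 FPKM in root.

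The edges of the set were not sharp. The 3 loci just inside the shoot threshold were at 10.05, 10.07 and 10.08 FPKM, and the 3 just outside it at 9.97, 9.96 and 9.88 FPKM. At the root threshold, the nearest inside were at 0.9998, 0.9933 and 0.9932 FPKM and the nearest outside at 1.002, 1.008 and 1.01 FPKM. Spans nearest the limit of 300 bases were 308, 453 and 461 inside and 297, 283 and 221 outside. Within the set, 42 loci were under 12 FPKM in shoot and 61 were at 0.8 FPKM or more in root. Outside it, 55 eligible loci were at 8 to 10 FPKM in shoot and under 1 in root, and 43 were at 10 or more in shoot and 1 to 1.2 in root.

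The most abundant locus of the set, on chromosome 8 from 70797459 to 70798657, reached 2881 FPKM in shoot against 0.897 in root. The next, from 190052266 to 190053467 on chromosome 4, reached 1850 FPKM in shoot against 0.852 in root. The third, on chromosome 7 from 160254753 to 160258270, reached 1203 FPKM in shoot against 0.801 in root. All 3 lay near the root threshold, as did the fourth. That locus, on chromosome 9 from 61295836 to 61301525, reached 1174 FPKM in shoot against 0.885 in root. The next 6 ranged from 756 to 879 FPKM in shoot and from 0.169 to 0.567 FPKM in root. They were on chromosome 6 from 1340367 to 1341144, on chromosome 7 from 157276416 to 157277981 and from 176215291 to 176216464, on chromosome 4 from 83173325 to 83174723, and on chromosome 2 from 42257488 to 42259816 and from 56108006 to 56109200. Together the 10 held 25.5% of the summed shoot FPKM of the set.

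Among very abundant shoot loci, the share off in root was larger than among moderately abundant ones. At 500 FPKM or more in shoot, 31 of 201 eligible loci (15.4%) were under 1 FPKM in root, against 388 of 11932 (3.25%) at 10 to 500 FPKM. Between 500 and 1000 FPKM the share was 27 of 138 (19.6%), and from 1000 FPKM up it was 4 of 63 (6.35%). In the 5 classes from 10 to 500 FPKM it stayed between 2.57% and 4.70%. Loci are not replicates, and no test was made of these shares.

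The 201 abundant shoot loci fell toward both ends of the root scale. In root, 63 were under 10 FPKM, counting the 31 under 1 and 32 at 1 to 10. Only 12 (5.97%) were at 10 to 100 FPKM, while 18 were at 100 to 500 and 108 (53.7%) at 500 or more. Among loci at 10 to 500 FPKM in shoot, the root class of 10 to 100 FPKM held 72.0% and that of 1 to 10 held 12.999%.

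The 31 most abundant loci were not the most silent in root. Their root levels ran from 0.0738 to 0.972 FPKM with a median of 0.501, and 1 of them (3.23%) was under 0.1 FPKM. Of the 269 loci at 10 to 50 FPKM in shoot, 88 (32.7%) were under 0.1 FPKM in root, with a median of 0.302. Of the 119 at 50 to 500 FPKM, 34 (28.6%) were under 0.1 FPKM, with a median of 0.285. Expressed against the shoot level, the root level of the 31 was 0.0138% to 0.188%, with a median of 0.0657%. The same share had a median of 1.26% at 10 to 50 FPKM and 0.204% at 50 to 500 FPKM. The rule holds root under 1 FPKM at every shoot level, so the largest share it allows falls as shoot rises. The order of these 3 medians thus follows largely from the thresholds. Over all 419 loci the rank correlation of shoot and root level was 0.07 (Spearman, across loci, which are not independent and share both libraries). It was 0.62 over the 12133 eligible loci at 10 FPKM or more in shoot, a range the root threshold does not narrow.

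The largest ratio rested on few root fragments. It was on chromosome 9 from 75779775 to 75780946, with 299 FPKM in shoot against 0.0313 in root. By the whole span that root value stood for about 4 fragments, an estimate rounded to a whole number and not an observed count. With it, the 9536-fold ratio had a 95% Poisson interval of 3725-fold to 35000-fold. This interval, like those that follow, covers counting error of the root value only. It leaves out the error of the fragment estimate, and is too narrow where introns make that estimate too high. The second, on chromosome 8 from 153139057 to 153140421, reached 69.1 FPKM in shoot against 0.00895 in root. It rested on about 1 root fragment, and its 7720-fold ratio had an interval of 1386-fold to 304923-fold. The order of such ratios was therefore not resolved.

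Ratios on more root fragments were better bounded. On chromosome 2, the locus from 102136790 to 102139343 reached 329 FPKM in shoot against 0.0701 in root, on about 21 fragments. Its ratio was 4701-fold, with an interval of 3075-fold to 7594-fold. The locus on chromosome 6 from 1340367 to 1341144 reached 879 FPKM in shoot against 0.169 in root, on about 12 fragments. This gave 5200-fold, with an interval of 2977-fold to 10064-fold. The other 6 of the 10 largest ratios were 4464-fold to 7256-fold, on about 2 to 8 root fragments. They were on chromosome 3 from 184434181 to 184435200 and from 230607211 to 230607984, on chromosome 4 from 1980236 to 1987492 and from 37097922 to 37098712, on chromosome 8 from 111824536 to 111830827 and on chromosome 2 from 40588319 to 40589205. The ratio on the 2 fragments at 1980236 had an interval of 1621-fold to 48353-fold, and that at 37097922, also on 2, of 1236-fold to 36858-fold.

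The 13 loci listed at 0 in root were mostly low and short. Their median was 18.6 FPKM in shoot and their median span 763 bases. A listed 0 can be a failed estimate. Where it is a count, 3 fragments per locus are taken as the limit it allows, turned into FPKM by the whole span, which makes the limit too low where introns are present. The highest of the 13 in shoot, on chromosome 1 from 3000302 to 3000970, had 105 FPKM, and the limit was 0.0525 FPKM in root. From 176799486 to 176800117 on chromosome 5, the shoot level was 35.5 FPKM, with a limit of 0.0573 FPKM. The locus on chromosome 7 from 141644468 to 141644776 was the shortest of the set, with 21.9 FPKM in shoot and a limit of 0.295 FPKM. From 93377129 to 93377704 on chromosome 10, the shoot level was 20.7 FPKM, with a limit of 0.0666 FPKM. From 106201179 to 106203056 on chromosome 9 it was 20.2 FPKM, with a limit of 0.0140 FPKM. All 13 would remain under 1 FPKM at these limits, and no fold is given for them.

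Loci on in shoot and off in root were shorter than other loci of their shoot level. Their median span, introns included, was 2038 bases, with quartiles of 1258 and 3496. The 11714 eligible loci at 10 FPKM or more in shoot and 1 or more in root had a median span of 4161 bases, with quartiles of 2506 and 6966. All eligible loci had a median of 3309 bases. The opposite set, the 164 eligible loci at 10 FPKM or more in root and under 1 in shoot, was also short, with a median of 1467 bases and quartiles of 1116 and 2724. No test was made, since loci are not replicates and short loci were filtered at 300 bases.

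The share of shoot loci that were off in root peaked between 500 and 2000 bases. It was 51 of 615 (8.29%) above 500 and up to 1000 bases, and 154 of 1537 (10.02%) above that and up to 2000. It was 147 of 5090 (2.89%) up to 5000 bases, 46 of 2953 (1.56%) up to 10000, 11 of 1140 (0.965%) up to 20000 and 7 of 606 (1.16%) above 20000. Up to 500 bases it was 3 of 192 (1.56%). On the root side, the share of loci at 10 FPKM or more in root that were off in shoot also peaked in the class up to 2000 bases, at 4.86%. Up to 500 bases this root-side share was 4 of 184 (2.17%), against the 3 of 192 on the shoot side. It was lowest in the class up to 10000, at 5 of 2820 (0.177%).

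At each shoot level examined, the share off in root was lower above 5000 bases than up to 2000. At 10 to 50 FPKM in shoot, 7.43% of loci spanning up to 2000 bases were off in root, against 1.48% of those above 5000. At 50 to 500 FPKM these shares were 10.5% and 0.839%, and at 500 FPKM or more 17.8% and 5%, the last being 1 of 20 loci. From 2001 to 5000 bases the shares at these 3 levels were 2.76%, 2.71% and 14.3%, the last being 9 of 63 loci. At 500 FPKM or more the fall with span thus rested mainly on the 1 of 20. Within the set, span and shoot level had a rank correlation of -0.19 across the 419 loci, against -0.09 over the 12133. FPKM is itself divided by transcript length, so level and length are not independent measures.

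**Figure D2:**
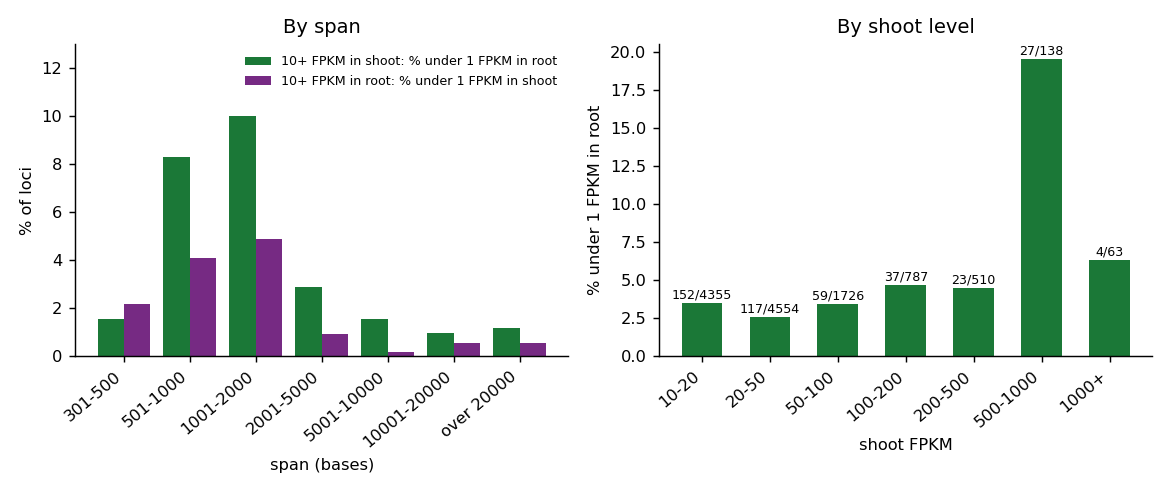
Left, the percentage of loci at 10 FPKM or more in one organ that were under 1 FPKM in the other, by span in bases, for shoot (green) and root (purple). Right, the percentage of loci under 1 FPKM in root by shoot FPKM, with the numbers behind each bar; the highest bar is 27 of 138 loci at 500 to 1000 FPKM.

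The longest locus of the set, on chromosome 9 from 134749982 to 134919022, spanned 169040 bases and reached 82.5 FPKM in shoot against 0.0896 in root. Next came 62058 bases on chromosome 5, from 78255057 to 78317115, which reached 35.1 FPKM in shoot against 0.524 in root. Also on chromosome 5, the locus from 20050703 to 20098557 reached 34.5 FPKM in shoot against 0.0163 in root. The other 2 of the 5 longest were on chromosome 9 from 45328729 to 45365571, at 18.2 and 0.0763 FPKM, and on chromosome 7 from 45120457 to 45152064, at 14.5 and 0.883 FPKM, in shoot and root. Different positions in the table never overlapped (0 overlapping pairs among 26802 positions), so a long position may cover ground that several transcripts share.

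Short loci included some abundant ones. On chromosome 10, the locus from 145097394 to 145097904 spanned 510 bases and reached 461 FPKM in shoot against 0.111 in root. A stretch of 461 bases on chromosome 7, from 158127002 to 158127463, reached 145 FPKM in shoot against 0.0673 in root, on about 2 root fragments. The others of the 5 shortest were the 308-base locus described above, a 508-base locus on chromosome 10 from 82453519 to 82454027 with 19.7 FPKM in shoot and a listed 0 in root, and a 453-base locus on chromosome 3 from 38534951 to 38535404 at 11.2 and 0.559 FPKM in shoot and root.

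The loci lay on all 10 chromosomes, in numbers that followed the loci available on most of them. Chromosome 1 held 64 (15.3% of the set, against 15.2% of eligible loci) and chromosome 9 held 26 (6.21% against 7.68%). Chromosome 10 held 43, 10.3% of the set against 6.74% of eligible loci. There, 5.29% of loci at 10 FPKM or more in shoot were off in root, against 2.64% on chromosome 8, the lowest, and 4.10% on chromosome 4, the next highest. Chromosome 10 also had the largest share on the root side, with 2.75% of loci at 10 FPKM or more in root off in shoot, against 0.760% to 1.80% on the others.

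Along the chromosomes, the loci were densest toward the ends, as eligible loci were, with differences in some stretches. Their median distance from the nearer end was 16.6% of chromosome length, and that of eligible loci 16.7%, with length taken as the last listed base. The first and last 10% of chromosome length held 15.8% and 16.9% of the set, against 14.8% and 18.5% of eligible loci. Between 20% and 30% of chromosome length lay 39 loci, 9.31% against 6.34%, and there 5.27% of loci at 10 FPKM or more in shoot were off in root. The stretch from 50% to 60% held 4.53% against 6.49%, and that from 70% to 80% held 8.11% against 11.5%. The number of other positions within 500000 bases had a median of 15 around the set and 16 around eligible loci. Surroundings of at most 10 other positions held 31.7% of the set and 26.4% of eligible loci. None of these shares was tested.

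**Figure D3:**
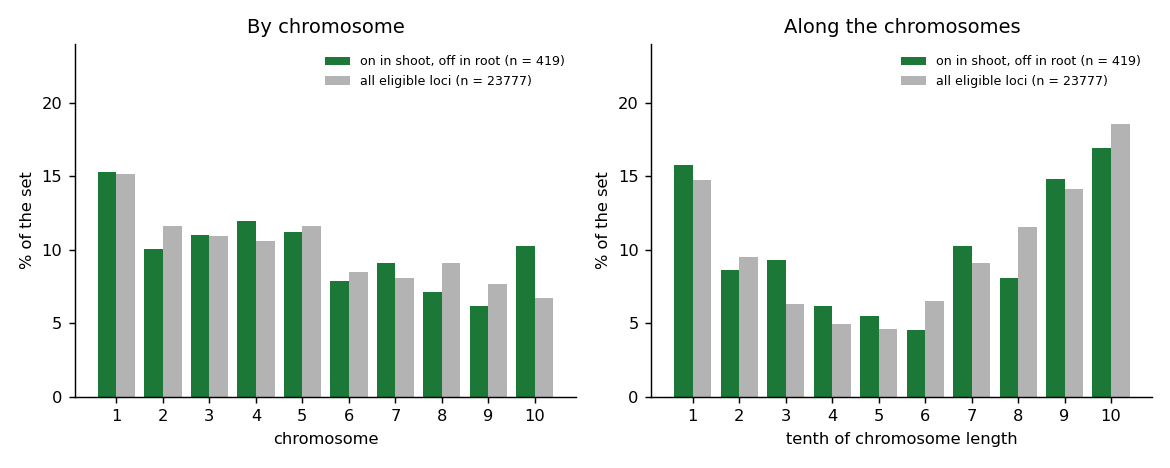
Bars give the percentage of the 419 loci on in shoot and off in root (green) and of the 23777 eligible loci (grey) on each chromosome (left) and in each 10% of chromosome length (right). The pairs of bars are close on most chromosomes, and chromosome 10 holds 10.3% of the set against 6.74% of eligible loci.

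The loci were widely spaced, as were those of the smaller opposite set of 164. The median gap to the nearest other locus of the set was about 1.5 Mb (1495570 bases). It was 3720130 bases in the opposite set and 14010 over the 23777 eligible loci. Another was within 100000 bases for 34 loci (8.11%), against 7.32% in the opposite set and 90.3% of eligible loci. Within 1 Mb it was 169 (40.3%), against 26.2% and 100%. Such gaps depend on the number of loci in a set, and spacing was not tested. Of the windows of 1 Mb with a listed position, 1693 held no locus of the set, 313 held 1, 47 held 2, 4 held 3, and none held more. The windows with 3 were 102 to 103 Mb on chromosome 2, with 6 listed positions in all, 117 to 118 Mb on chromosome 6 with 15, 1 to 2 Mb on chromosome 6 with 16, and 20 to 21 Mb on chromosome 5 with 20.

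Where loci of the set did come close, most had no other listed position between them. With gaps of up to 100000 bases joined, the set gave 2 groups of 3, 14 groups of 2 and 385 single loci. In the list of positions there were 16 pairs of immediate neighbours that both belonged to the set. Of the 838 positions flanking the 419 loci, 32 (3.82%) were themselves in the set, against 1.60% of positions flanking eligible loci. The share was 3.35% at gaps under 5 kb, 5.26% at 5 to 20 kb, 4.79% at 20 to 100 kb and 1.90% at 100 kb or more, on 6, 6, 16 and 4 positions. Beside eligible loci it was 1.47% to 1.67% in the same classes. On the root side, 16 of 328 flanking positions (4.88%) belonged to the same opposite set, which made up 0.612% of all positions. These shares were not tested.

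The tightest group of 3 was on chromosome 6, from 1340367 to 1373997, and had no other listed position inside. Its loci were all abundant in shoot. The first, described above for its ratio, had 879 FPKM in shoot against 0.169 in root. The second, from 1343663 to 1345071, had 272 FPKM in shoot against 0.547 in root, and the third, from 1373128 to 1373997, at 508 and 0.361 FPKM. The outer loci spanned 777 and 869 bases and the middle one 1408.

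The other group of 3, on chromosome 1 from 119999034 to 120195031, was looser and less even. Its outer loci, ending at 120000259 and starting at 120192933, reached 343 and 605 FPKM in shoot against 0.229 and 0.170 in root. The middle locus, from 120097065 to 120100045, reached 34.1 FPKM in shoot against 0.468 in root. Gaps of 96806 and 92888 bases separated them, with no other listed position between.

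The 3 tightest groups of 2 were each within 10 kb. On chromosome 5, loci from 20580789 to 20583985 and from 20584096 to 20584822 lay 111 bases apart, at 12.7 and 11.1 FPKM in shoot and 0.493 and 0.265 FPKM in root. Whether these are parts of 1 transcript was not tested. On chromosome 2, the locus ending at 40589205 reached 199 FPKM in shoot against 0.0416 in root, and its neighbour from 40592841 to 40593950 at 18.5 and 0.152 FPKM. On chromosome 10, loci from 132611993 to 132613950 and from 132619415 to 132621160 reached 51.9 and 13.9 FPKM in shoot against 0.166 and 0.993 in root.

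Neighbouring loci of the set ranged from near-equal to very unequal in level. Over the 16 adjacent pairs, the fold between the higher and lower shoot level was 1.03 at the least, 2.74 at the median and 17.7 at the most. In 4 pairs (25%) the levels were within 1.2-fold. Over the 5775 adjacent pairs of eligible loci at 10 FPKM or more in shoot, the median was 2.08-fold and 14.3% were within 1.2-fold. None of the 16 pairs had spans within 10% of each other. The closest were 1805 and 1999 bases, on chromosome 3 from 178814924 to 178816729 and from 178846373 to 178848372, at 57.4 and 529 FPKM in shoot and 0.0289 and 0.412 FPKM in root.

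Assembly numbers gave a further view of position. On each chromosome they ascend along the sequence in 3 successive runs. What the runs stand for is not given in the sources used here. The first run held 210 loci of the set (50.1%), the second 204 (48.7%) and the third 5 (1.19%), against 48.2%, 47.2% and 4.66% of eligible loci. Of loci at 10 FPKM or more in shoot, the runs had 3.44%, 3.45% and 3.85% off in root, the last being 5 of 130. These shares were not tested. Of the 16 adjacent pairs, 10 had both loci in the same run, compared with 46.5% of all 26792 pairs of adjacent positions.

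The positions beside these loci were mostly alike in the organs. The rule took 32 of the 838 flanking positions, all higher in shoot, into the set, and shares with them kept are given below. Flanking positions outside the set numbered 806. On the scale log2((shoot FPKM + 1) / (root FPKM + 1)) they had a median of -0.02, with quartiles of -0.42 and 0.57. All positions outside the set had a median of -0.09. A 4-fold difference on that scale was reached toward shoot by 54 (6.70%) of the 806, where the background over all positions outside the set was 5.54%. Toward root it was reached by 25 (3.10%), where the background was 3.70%. Over all 806, both shares were near the background. Counting only the nearer such position of each locus, 37 of 417 (8.87%) were 4-fold or more toward shoot, against 5.57% beside eligible loci. Toward root it was 14 (3.36%), against 3.64%. These differences were not tested. At 1 FPKM or more in both organs were 671 of the 806 (83.3%), and the median level was 11.6 FPKM (shoot) and 10.5 FPKM (root).

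The share toward shoot followed no steady course with distance. Of the 60 flanking positions under 1 kb away, 6 (10%) were 4-fold or more toward shoot and 1 toward root, with a median log2 ratio of -0.11. At 1 to 5 kb the share toward shoot was 7 of 113 (6.19%), at 5 to 20 kb 6 of 108 (5.56%), at 20 to 100 kb 26 of 318 (8.18%) and at 100 kb or more 9 of 207 (4.35%). Beside eligible loci, the shares in these 5 classes were 5.96%, 5.04%, 5.26%, 5.63% and 5.89%. The median log2 ratio beside the set was -0.11 at 1 to 5 kb, 0.04 at 5 to 20 kb, -0.0034 at 20 to 100 kb and 0.0026 beyond. From the flanking place out to place 5, the share toward shoot ran between 5.21% and 7.04%.

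Neighbours of the opposite set leaned toward root. The 323 positions beside the 164 loci on in root and off in shoot, leaving out shoot-on loci, had a median log2 ratio of -0.32. Of these, 46 (14.2%) were 4-fold or more toward root, against the background of 3.70%, but this count includes 16 loci of that set itself. Without them it was 30 of 307 (9.77%), with a median of -0.26. The 3.70% still includes the 164 loci, all 4-fold or more toward root, so it is not a matched background for this share. The corresponding share beside the shoot set was the 6.70% given above. With its own members included, the shoot set had 86 of 838 flanking positions (10.3%) 4-fold or more toward shoot, where the background over all positions was 7.01%. It had 25 (2.98%) 4-fold or more toward root, where that background was 3.65%.

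**Figure D4:**
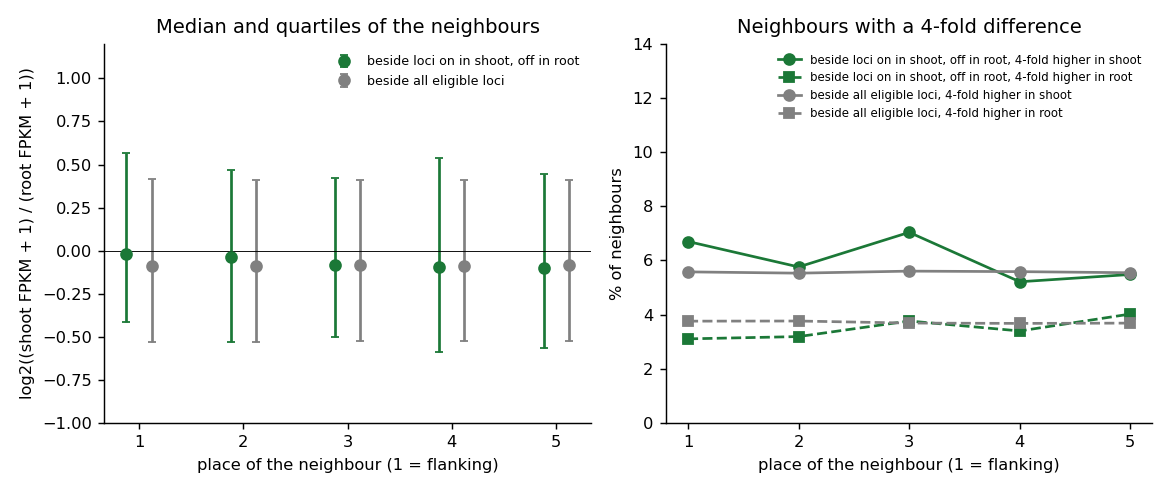
Left, median and quartiles (bars) of log2((shoot FPKM + 1) / (root FPKM + 1)) of positions outside the set at places 1 to 5 from the 419 loci (green) and from eligible loci (grey). Right, the percentage of those neighbours with a 4-fold difference toward shoot (circles) or root (squares); green and grey lie within about 2 percentage points of each other at every place.

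Seen locus by locus, 315 of the 419 (75.2%) had no 4-fold difference and no other locus of the set on either side. Another 49 (11.7%) had a position 4-fold or more toward shoot on 1 side only, 24 (5.73%) another locus of the set, and 24 (5.73%) a position 4-fold or more toward root. Yet another had a locus of the set on 1 side and such a root-side position on the other. In 6 cases both sides were in the set or 4-fold or more toward shoot. Of eligible loci, 79.6% had neither on either side, 9.79% had a position toward shoot on 1 side only, 2.81% a locus of the set and 6.44% a position toward root. At 100 kb or more from the positions on both sides stood 40 loci (9.55%), against 7.52% of eligible loci. These 40 had median levels of 21.7 FPKM (shoot) and 0.315 FPKM (root), and included the most abundant locus of the set. The most isolated, on chromosome 4 from 91394976 to 91395589, was 541881 bases from the nearest position and reached 20.5 FPKM in shoot against 0.0406 in root. It was picked after its values were seen.

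Loci with opposite organ use stood side by side in a few places. On chromosome 5, the locus from 206743447 to 206744916 reached 488 FPKM in shoot against 0.456 in root. Only 464 bases away, the locus from 206741918 to 206742983 reached 0.0986 FPKM in shoot against 22.0 in root. In all, 5 of the 838 flanking positions (0.597%) were on in root and off in shoot, about the share of 0.612% among all positions. Apart from the chromosome 5 pair, their gaps were wide, from 25474 to 198037 bases.

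The strongest leans among flanking positions outside the set were toward shoot. On chromosome 2, the position from 142794990 to 142796028 reached 1200 FPKM in shoot against 1.34 in root. On chromosome 1, the position from 283430630 to 283432301 reached 457 FPKM in shoot against 2.14 in root, a log2(FPKM + 1) ratio of 7.19. Both missed the set by their root level, and they were picked after their values were seen. Toward root, the strongest lean was a log2(FPKM + 1) ratio of -5.44, on chromosome 9. There, the position from 128089380 to 128090472 reached 5.75 FPKM in shoot against 292 in root, 2867 bases from the locus from 128093339 to 128095713, which was at 11.96 and 0.624 FPKM. On chromosome 1, the position from 190141411 to 190142855 reached 0.864 FPKM in shoot against 44.5 in root, 46344 bases from a locus starting at 190189199 that was at 80.6 and 0.331 FPKM. On chromosome 7, the position from 167634903 to 167636428 reached 1.76 FPKM in shoot against 59.7 in root, 1985 bases from a locus starting at 167638413 that was at 12.99 and 0.287 FPKM. The fourth was the chromosome 5 position just described. The fifth, on chromosome 4 from 226067010 to 226068913, reached 0.404 FPKM in shoot against 26.3 in root, 198037 bases from a locus starting at 226266950 at 152 and 0.591 FPKM.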

How the data were processed

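Polyadenylated RNA of 1 shoot and 1 root library of B73 maize was sequenced for 100 cycles, paired-end and without strand, per the labels' protocols. The authors deposited FPKM values, 1 per locus and organ, on B73 RefGen_v2 per the file headers. Per the submitters' processing notes, the tools were TopHat, Cufflinks and Cuffdiff. The versions and settings of these and any scaling between libraries were not stated in the sources at hand. The lowest value of the higher organ was 1.00022 FPKM, so weaker loci are not listed. Total counts are not in the table. The worth of 1 fragment was fitted to the steps of low values at 113 shoot and 171 root loci as a constant over span less an offset of 220 and 230 bases. It gave 0.00884 and 0.00766 FPKM at 1000 effective bases, and 56.6% and 62.0% of the values came within 0.1 of a whole fragment. The fit was tested on simulated data with whole fragments, no noise and the span as the exact length. That setting has no introns, so it does not test the estimate where introns are present.

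Of the 29674 loci, 47 lay outside chromosomes 1 to 10, 5093 shared a position and 757 spanned 300 bases or less. Neighbours were taken from 26802 positions, with FPKM summed where loci share one. A pseudocount of 1 was used. Without replicates no p-value was computed. Members, sets and rules were chosen with earlier results of these data known. Loci named are the 10 highest in shoot, the 10 largest ratios, the 5 highest listed at 0 in root, the 5 longest and shortest, those nearest the thresholds, the 5 largest groups and the 5 neighbours most toward root. Other loci and windows named, and the classes of level and span, were chosen after values were seen. Alternatives moved each threshold, the scaling, the pseudocount and the gap. Scripts ran in Python 3.11.15 (numpy 2.4.6, pandas 2.3.3, matplotlib 3.10.9, scipy 1.17.1).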

Additional observations from a re-analysis of the deposited data

How the results depend on the processing

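The number of loci followed the shoot threshold, with 679 at 5 FPKM, 267 at 20 FPKM and 2377 at 1 FPKM, against 419. The median shoot level moved with it, to 13.8, 56.7 and 2.26 FPKM. The share within 100 kb of another was 12.96% at 5 FPKM and 31.0% at 1 FPKM, and 4.53% with a gap of 50 kb. At 1 FPKM the median distance to the nearer chromosome end was 21.1%. The number also moved with the root threshold, to 286 at 0.5 FPKM and 616 at 2 FPKM. These were the lowest and highest of the other 8 alternatives. All 11 kept the median span between 1877 and 2175 bases.

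The median log2 ratio of the nearest neighbour was -0.01 and changed sign easily. It was 0.0017 with 5 FPKM in shoot, 0.0031 with 20 FPKM, 0.0031 with 2 FPKM in root and 2.8e-05 without loci listed at 0. Dividing root by the median ratio of 1.09 gave 0.12, and library sums of 1000000 gave 0.21, scalings that moved the median of all positions by 0.11 and 0.20. Relative to positions outside the set, the median of all flanking positions was 0.07 as deposited and 0.08 under both scalings. The cause of the other sign changes was not tested.

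No paired analysis was possible because each organ has 1 library. For the same reason no library was left out.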
